A study of Mus musculus with 10 samples.

Results

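The 7 genes described here encode transcription factors that drive skeletal muscle differentiation: the myogenic regulatory factors Myod1, Myf5 and Myog, the Mef2 genes Mef2a, Mef2c and Mef2d, and the homeobox gene Six4. They were chosen as a list of myogenic regulatory and Mef2 factors. No rule on their values was applied, but earlier results of these data were known. All 7 were among the 11228 genes with a value in the deposited expression table. RNA was measured in mouse myotubes, the multinucleated cells that myoblasts form when they fuse, after 2 days of differentiation in culture. One group received the gapmer set GAP-2 and another the set GAP-2/3, both of which silence Charme, a muscle long noncoding RNA that stays with chromatin, and the control group received GAP-scr. Gapmers are chimeric antisense oligonucleotides that direct cleavage of the RNA they pair with. Each group had 2 libraries, A and B, which the series' design text calls biological replicates, and all 3 groups carried a gapmer, so no value from cells without one is given. The strain and origin of the myoblasts and the composition of GAP-2/3 are not given in the sources used here, and Charme itself is not analysed here, so the extent of its loss was not measured. The series also holds ChIRP-seq libraries, which map the chromatin contacts of an RNA, from 1 pull-down with even probes, 1 with odd probes, 1 with LacZ probes as the negative control and 1 input.

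The myogenic regulatory factors are basic helix-loop-helix proteins. They pair with ubiquitous E proteins and bind the E-box of muscle genes, whereas Id proteins capture the E proteins and keep the pair from forming. Myf5 and Myod1 act first, in dividing myoblasts, and Myog follows when the cells leave the cell cycle and fuse. Mef2 proteins are MADS-box factors that bind AT-rich sites and act with the basic helix-loop-helix factors on shared targets, and Six4 binds MEF3 sites, among them one in the Myog promoter.

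The promoters of Myog, Myf5 and Mef2d are shown because the RNA of these genes changed and because Myog is the textbook case of a promoter read by all 3 families. In RefSeq windows of GRCm38.p6, from 250 bases before to 50 bases after an annotated start, 6 of the 7 genes had 9 windows between them; Myod1 had none in the table used. The windows lie at chr1:134289754-134290053 on the plus strand (Myog), chr10:107486085-107486384 on the minus strand (Myf5) and chr3:88142122-88142421 on the plus strand (Mef2d), each near the 5′ end of its gene. Capitals mark the E-box (CANNTG), the MEF2 core (TANNNNTA) and MEF3 (TCAGGTT), searched on both strands.
Myog: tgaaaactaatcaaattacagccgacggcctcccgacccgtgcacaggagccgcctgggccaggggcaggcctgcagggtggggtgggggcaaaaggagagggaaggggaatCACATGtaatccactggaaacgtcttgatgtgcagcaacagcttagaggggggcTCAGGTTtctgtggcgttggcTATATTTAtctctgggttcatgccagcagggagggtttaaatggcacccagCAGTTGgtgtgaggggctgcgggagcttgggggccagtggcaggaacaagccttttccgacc
Myf5: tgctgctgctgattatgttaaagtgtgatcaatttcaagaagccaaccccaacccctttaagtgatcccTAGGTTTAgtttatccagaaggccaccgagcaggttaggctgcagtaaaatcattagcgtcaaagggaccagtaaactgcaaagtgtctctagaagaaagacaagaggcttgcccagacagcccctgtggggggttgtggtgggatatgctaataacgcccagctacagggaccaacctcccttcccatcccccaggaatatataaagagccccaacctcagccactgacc
Mef2d: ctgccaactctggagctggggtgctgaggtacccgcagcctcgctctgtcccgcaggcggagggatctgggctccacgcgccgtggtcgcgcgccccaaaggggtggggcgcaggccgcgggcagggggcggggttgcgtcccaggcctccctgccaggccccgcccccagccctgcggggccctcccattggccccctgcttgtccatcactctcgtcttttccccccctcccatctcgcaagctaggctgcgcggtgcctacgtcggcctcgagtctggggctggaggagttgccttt
Counted from the start site, the Myog window held the E-boxes CACATG at -138 to -133 and CAGTTG at -12 to -7, the MEF3 sequence at -84 to -78 and the MEF2 core TATATTTA at -63 to -56. The Myf5 window held the MEF2 core TAGGTTTA at -181 to -174 and no E-box or MEF3 sequence. The Mef2d window, of which 72% of bases were G or C, held none of these motifs. Of all 32851 promoter windows of the same length, 72.3% held an E-box, 37.3% a MEF2 core and 4.07% a MEF3 sequence. A match is a run of letters and not evidence of binding.

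Expression was given as FPKM, the number of fragments scaled to transcript length and library size, so levels can be set beside each other between genes. Over the 6 libraries Myog averaged 796 FPKM and ranked 117 of 11228 genes, Myod1 averaged 109 FPKM (rank 750) and Mef2a 75.3 FPKM (rank 1124). Mef2d averaged 25.8 FPKM (rank 3284), Myf5 22.4 FPKM (rank 3703), Six4 12.1 FPKM (rank 5801) and Mef2c 1.42 FPKM (rank 10618). Myog, Myod1 and Mef2a held the first 3 places in every group, in that order and with no overlap between the libraries of neighbours. The 4th and 5th places differed between groups: Myf5 stood above Mef2d in GAP-2/3 with separate libraries, Myf5 and Mef2d overlapped in GAP-2, and in GAP-scr Mef2d stood above Myf5, which overlapped Six4. Mef2c was lowest in all 3 groups.

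Libraries had median values of 11.9 to 13.3 FPKM, and their depth is unknown because FPKM keeps no read number. The ribosomal RNA gene Rn45s was listed at 4090 FPKM in GAP-2 A and 3387 FPKM in GAP-scr A, against 93.2 to 176 FPKM in the other 4 libraries, so each comparison was also made without these 2 libraries. Myotube markers were abundant throughout: the summed level of 10 of 10 listed genes was 9074 and 9493 FPKM in GAP-2, 11153 and 10985 FPKM in GAP-2/3 and 14645 and 16074 FPKM in GAP-scr. Of the markers of other cells, 6 of 10 fibroblast genes summed to 2184 and 1868 FPKM in GAP-2, 1383 and 1601 FPKM in GAP-2/3 and 2078 and 2060 FPKM in GAP-scr. That sum is mostly collagen, and its members moved apart. In the mean over both arms against GAP-scr, Dcn rose by 1.09 ± 0.12 on the log2 scale (limma adjusted p = 0.000134) and Pdgfra by 0.64 ± 0.11 (limma adjusted p = 0.00174). Col1a1 fell by 0.54 ± 0.11 in that mean (limma adjusted p = 0.00484), while the other 3 did not pass. In GAP-2 alone neither Pdgfra (0.35 ± 0.13, limma adjusted p = 0.0849) nor Col1a1 (-0.17 ± 0.13, limma adjusted p = 0.407) passed. Dcn was at 72.7 and 71.3 FPKM in GAP-2, at 123 and 128 FPKM in GAP-2/3 and at 52.6 and 37.2 FPKM in GAP-scr. The 5 of 7 smooth muscle genes in the table summed to 1401 and 1443 FPKM in GAP-2, 1623 and 1602 FPKM in GAP-2/3 and 2147 and 2389 FPKM in GAP-scr, most of it Acta2, which young myotubes also express. For cardiac cells 2 of 9 markers were in the table (1124 to 1413 FPKM in the knock-down libraries, 1483 and 1503 FPKM in GAP-scr, nearly all Tnnt2), and for endothelial cells 0 of 6. The 2 of 6 adipocyte genes summed to 2.10 and 2.34 FPKM in GAP-2, 6.29 and 4.68 FPKM in GAP-2/3 and 2.22 and 2.90 FPKM in GAP-scr. The 1 of 7 macrophage genes, Cd68, was at 2.43 and 3.54 FPKM in GAP-2, 0.962 and 0.834 FPKM in GAP-2/3 and 0.374 and 0.917 FPKM in GAP-scr. The part of these other cells in the results below was not tested, and in such bulk libraries fewer cells of a type and less RNA per cell cannot be told apart.

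After Charme knock-down the early factor Myf5 rose, Myod1 and Mef2d fell, Myog fell in GAP-2, and Mef2a, Mef2c and Six4 did not pass the test. Changes were tested with limma on log2(FPKM + 1) over the 10993 genes that averaged 1 FPKM or more, a filter that all 7 passed, with p-values adjusted by Benjamini-Hochberg over those genes and a threshold of 0.05. For the mean over both arms against GAP-scr, 1 gene was higher and 3 were lower, beside 24.5% of all tested genes called higher and 9.57% called lower (34.1% called in all). From here on, a change, call or count given for both arms is that of this mean. A gene can pass in it without passing in each arm. In GAP-2, 1 was higher and 3 were lower, beside 10.4% and 4.18% of all genes (14.6% in all). In GAP-2/3, 1 was higher and 2 were lower, beside 28% and 11.3% (39.3% in all). The median change of the 7 genes was -0.20 in both arms, beside 0.10 over all tested genes. It was -0.16 in GAP-2, beside 0.07 over all genes, and -0.11 in GAP-2/3, beside 0.13. Scaling the libraries to one median brought the median over all genes to 0.02, 0.00 and 0.03 and the calls over all genes in both arms to 1633 higher and 1553 lower, in place of 2698 higher and 1052 lower, and left the calls among the 7 against GAP-scr at 1 and 3, 1 and 3, and 1 and 2. The arms share the GAP-scr libraries, so their agreement is no independent repeat.

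**Figure D1:**
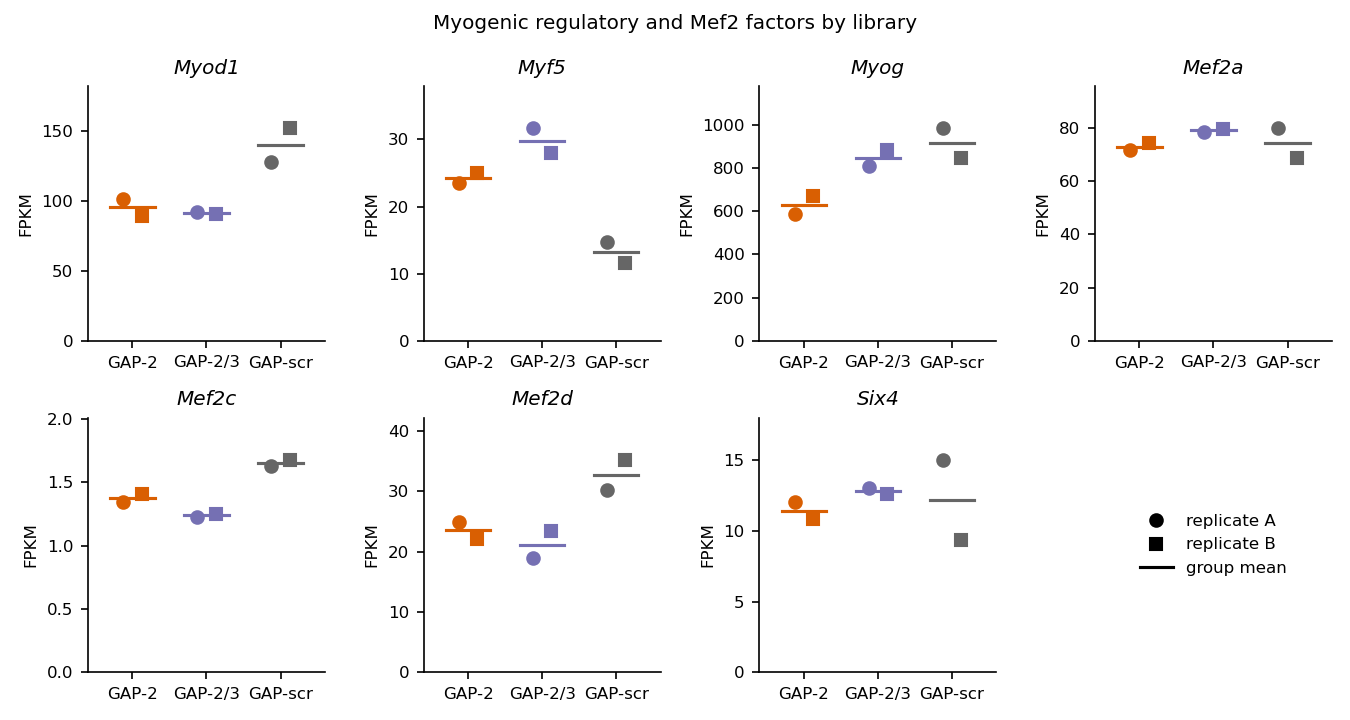
Level of each gene in FPKM (vertical axes from 0, own scale per gene) in the 2 libraries of GAP-2, GAP-2/3 and GAP-scr, with circles for replicate A, squares for replicate B and lines for the group mean. Myf5 is higher and Myod1, Mef2d and Mef2c are lower in all 4 knock-down libraries than in both GAP-scr libraries. Mef2c did not pass the test, and the share of all genes with libraries so apart is not given here. The Myog libraries of GAP-2/3 overlap those of GAP-scr.

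Myod1 (chromosome 7, 46376474 to 46379092 in RefSeq GRCm38.p6), the factor that commits cells to the muscle lineage, was at 102 and 89.5 FPKM in GAP-2, at 92.4 and 91.0 FPKM in GAP-2/3 and at 128 and 152 FPKM in GAP-scr. All 4 knock-down libraries lay below both control libraries, and the knock-down libraries overlapped each other. The group means were 95.7 ± 8.70 FPKM in GAP-2 and 91.7 ± 0.982 FPKM in GAP-2/3, 68.4% and 65.6% of the GAP-scr mean of 140 ± 17.1 FPKM (SD, n = 2 each). The log2 change was -0.57 ± 0.10 in both arms (SE; limma adjusted p = 0.00220), -0.54 ± 0.12 in GAP-2 (limma adjusted p = 0.0126) and -0.60 ± 0.12 in GAP-2/3 (limma adjusted p = 0.00290). The difference of GAP-2/3 from GAP-2 was -0.06 ± 0.12, with a 95% interval of -0.32 to 0.20 (limma adjusted p = 0.794). Without GAP-2 B the change in GAP-2 was -0.45 with a limma adjusted p of 0.157.

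Myf5 (chromosome 10, 107482908 to 107486927) marks committed myoblasts and is normally turned down as they differentiate. It was listed at 23.5 and 24.97 FPKM in GAP-2, at 31.6 and 27.98 FPKM in GAP-2/3 and at 14.8 and 11.6 FPKM in GAP-scr. The 3 groups did not overlap, with GAP-2/3 highest and GAP-scr lowest. Means were 24.2 ± 1.07 FPKM in GAP-2 and 29.8 ± 2.58 FPKM in GAP-2/3, 184% and 226% of the GAP-scr mean of 13.2 ± 2.27 FPKM (SD, n = 2 each). Its rise was the largest change among the 7 genes, at 0.98 ± 0.11 in both arms (limma adjusted p = 0.000153), 0.84 ± 0.13 in GAP-2 (limma adjusted p = 0.00216) and 1.13 ± 0.13 in GAP-2/3 (limma adjusted p = 0.000129). Under the 15 alternatives tried for both arms, the change lay between 0.82 and 1.17 and passed the threshold each time. GAP-2/3 exceeded GAP-2 by 0.29 ± 0.13, which was short of the threshold after adjustment (limma adjusted p = 0.192).

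Myog (chromosome 1, 134290004 to 134292548), which encodes the factor required for myoblasts to become fused fibres, was at 588 and 669 FPKM in GAP-2, at 811 and 882 FPKM in GAP-2/3 and at 982 and 846 FPKM in GAP-scr. Both GAP-2 libraries lay below all others, and the GAP-2/3 libraries overlapped those of GAP-scr. Means were 628 ± 57.4 FPKM in GAP-2 and 846 ± 50.1 FPKM in GAP-2/3, 68.8% and 92.6% of the GAP-scr mean of 914 ± 96.3 FPKM (SD, n = 2 each). The change was -0.54 ± 0.12 in GAP-2 (limma adjusted p = 0.0141) and -0.11 ± 0.12 in GAP-2/3, where the 95% interval was -0.37 to 0.16 (limma adjusted p = 0.498). The arms differed: GAP-2/3 was higher than GAP-2 by 0.43 ± 0.12 (limma adjusted p = 0.0442), the single call among the 7 genes in that comparison, beside 6.5% of all genes called higher and 3.65% called lower (10.1% in all). In the mean of both arms the change was -0.32 ± 0.10 (limma adjusted p = 0.0336), the mean of an arm that passed and an arm that did not. That call was lost in 7 of the 15 alternatives, among them the one without both libraries high in Rn45s (-0.17, limma adjusted p = 0.344). The call in GAP-2 was lost without those 2 libraries (-0.34, limma adjusted p = 0.145) and without GAP-2 A alone (-0.45, limma adjusted p = 0.153), and the difference between the arms was lost in 8 of 16 alternatives.

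**Figure D2:**
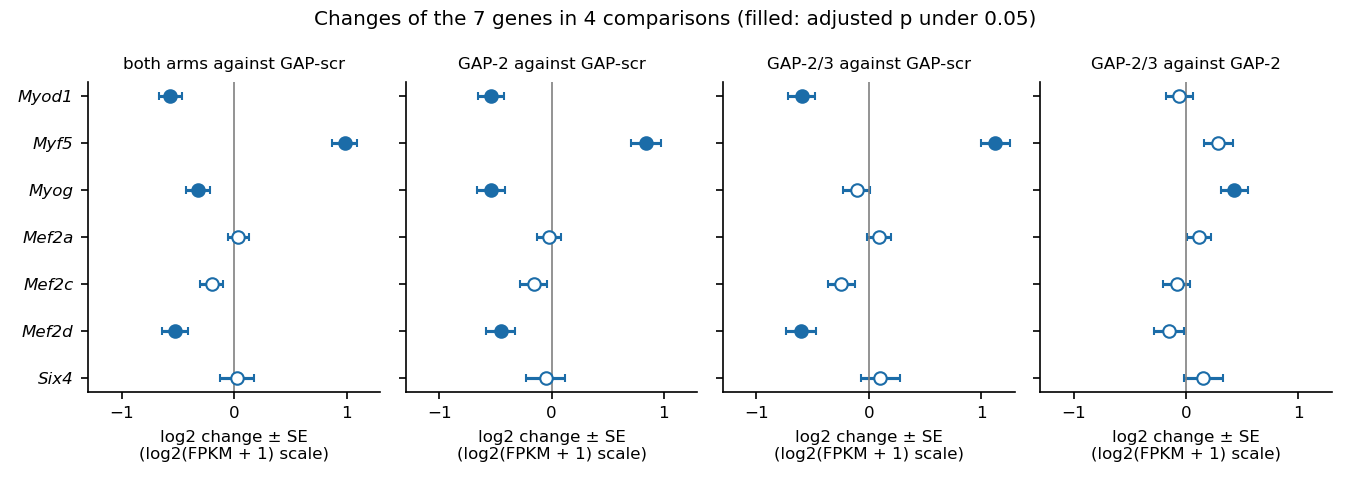
Log2 change on the log2(FPKM + 1) scale (horizontal axes) of each gene in 4 comparisons, with bars for the SE from limma (2 libraries per group) and filled points for an adjusted p under 0.05. Myf5 lies at 0.84 and 1.13 in the arms, Myod1 at -0.54 and -0.60, and Myog is the one filled point in GAP-2/3 against GAP-2, at 0.43.

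The balance among the 3 myogenic regulatory factors was compared within each library, where scaling cancels. The level of Myf5 was 23.03% and 27.9% of that of Myod1 in GAP-2, 34.3% and 30.8% in GAP-2/3, against 11.6% and 7.61% in GAP-scr. All 4 knock-down libraries were above both control libraries (two-sided exact permutation test, 4 against 2 libraries, p = 0.0667, the smallest this design allows). This separation follows from Myf5 being higher and Myod1 lower in all 4, so the test adds no evidence to the single-gene results. The log2 ratio of Myf5 to Myod1, each as FPKM + 1, averaged -1.76 in the knock-down libraries and -3.32 in GAP-scr, a difference of 1.55. The ratio of Myog to Myod1 was 5.77 and 7.47 in GAP-2, 8.78 and 9.69 in GAP-2/3, against 7.69 and 5.57 in GAP-scr, with overlap between the groups (exact permutation p = 0.467). Myog supplied most of the summed FPKM of the 3 factors, 82.4% to 88.1% in the knock-down libraries and 87.3% and 83.8% in GAP-scr (exact permutation p = 1). The Myf5 share of that sum was 2.80% to 3.38% in the knock-down libraries, against 1.31% and 1.146% in GAP-scr (exact permutation p = 0.0667). The Benjamini-Hochberg value over the 10 such measures, those of the Mef2 genes included, was 0.133 for each of the 5 at the smallest p. These 5 are not separate results. The ratio of Myf5 to Myod1 enters both as a percentage and on the log2 scale, and the Mef2a and Mef2d shares nearly mirror each other.

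Among the Mef2 genes, Mef2d fell while Mef2a, the most abundant, stayed within the spread of its controls. Mef2d (chromosome 3, 88141941 to 88172091), a MADS-box factor present from the myoblast stage, was at 25.003 and 22.1 FPKM in GAP-2, at 18.9 and 23.4 FPKM in GAP-2/3 and at 30.2 and 35.2 FPKM in GAP-scr. The knock-down libraries all lay below both controls, and the arms overlapped. Means were 23.6 ± 2.02 FPKM in GAP-2 and 21.2 ± 3.16 FPKM in GAP-2/3, 72.1% and 64.8% of the GAP-scr mean of 32.7 ± 3.56 FPKM (SD, n = 2 each). The change was -0.53 ± 0.12 in both arms (limma adjusted p = 0.00568), -0.45 ± 0.13 in GAP-2 (limma adjusted p = 0.0416) and -0.61 ± 0.13 in GAP-2/3 (limma adjusted p = 0.00493). In both arms it passed under all 15 alternatives, between -0.68 and -0.42. In GAP-2 alone it was lost in 6 of 16, with a limma adjusted p of 0.305 without GAP-2 B, and in GAP-2/3 it was lost without GAP-2/3 A (-0.46, limma adjusted p = 0.0773). The file gives gene levels only, so the muscle-specific Mef2d isoform was not told apart from the ubiquitous one.

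Mef2a (chromosome 7, 67231163 to 67376456), another MADS-box factor of muscle, was listed at 71.6 and 74.1 FPKM in GAP-2, at 78.5 and 79.4 FPKM in GAP-2/3 and at 79.7 and 68.7 FPKM in GAP-scr. Every knock-down library lay within the range of the 2 controls. The difference in both arms was 0.04 ± 0.09 with a 95% interval of -0.17 to 0.24 (limma adjusted p = 0.796), and its sign depended on the scaling. Mef2c (chromosome 13, 83504017 to 83667079), the Mef2 gene that follows Myog in differentiation, was near the filter on low values. Its level was 1.35 and 1.402 FPKM in GAP-2, 1.23 and 1.25 FPKM in GAP-2/3 and 1.63 and 1.67 FPKM in GAP-scr. The groups did not overlap, and the means in GAP-2 and GAP-2/3 were 83.2% and 75.04% of that in GAP-scr. The difference of -0.20 ± 0.10 in both arms (95% interval -0.43 to 0.02, limma adjusted p = 0.144) missed the threshold, and the added 1 FPKM shrinks it for a gene at this level. With an added 0.1 FPKM it was -0.32 (limma adjusted p = 0.155), and under quantile normalization it passed at -0.36 (limma adjusted p = 0.0221). The SE also draws on a spread that limma shares with other genes. Within groups the SD of Mef2c was only 0.040 FPKM in GAP-2, 0.016 FPKM in GAP-2/3 and 0.033 FPKM in GAP-scr.

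The shares of the summed Mef2 RNA were compared within each library. Mef2a held 73.1% and 75.9% of the sum in GAP-2, 79.6% and 76.3% in GAP-2/3, against 71.5% and 65.1% in GAP-scr. Mef2d held 25.5% and 22.7% in GAP-2, 19.2% and 22.5% in GAP-2/3, against 27.1% and 33.4% in GAP-scr. Mef2c was a small part of the sum, so the Mef2a and Mef2d shares nearly mirror each other and give a single result. For both genes the knock-down and control libraries were apart (exact permutation p = 0.0667 each, above 0.05 and the smallest this design allows). The difference was 7.95 percentage points for Mef2a and -7.74 for Mef2d. The size rests on the control libraries: it was 4.75 and -4.60 points without GAP-scr B and 11.2 and -10.9 points without GAP-scr A. Mef2c held 1.201% to 1.44% in the knock-down libraries and 1.46% and 1.59% in GAP-scr (exact permutation p = 0.133).

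**Figure D3:**
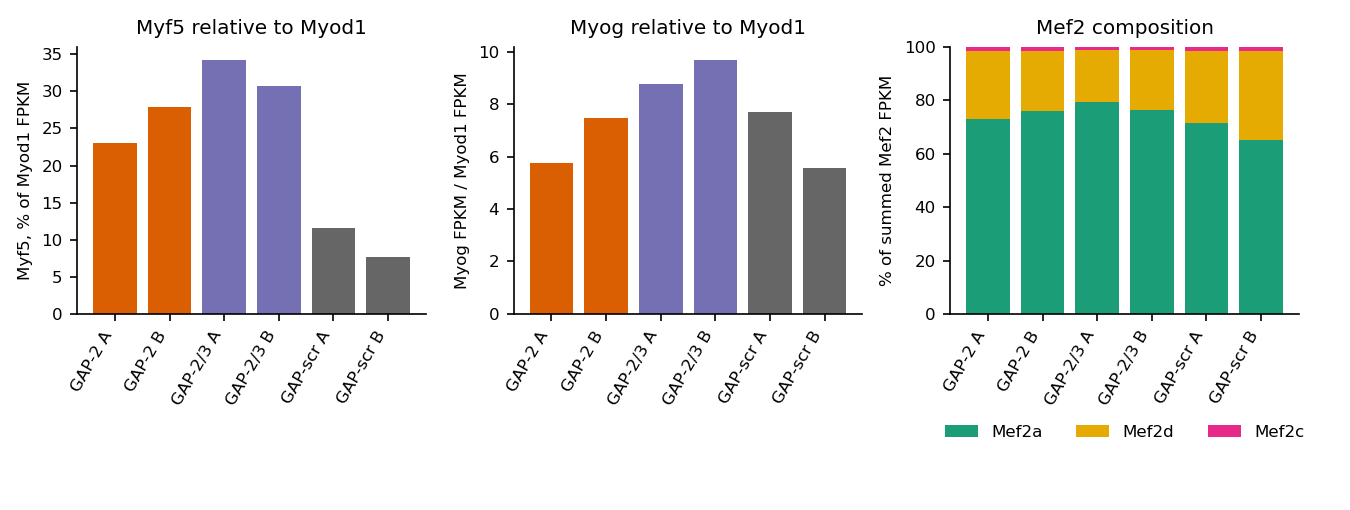
Left, Myf5 as a percentage of Myod1 FPKM; middle, Myog FPKM divided by Myod1 FPKM; right, the shares of Mef2a, Mef2d and Mef2c in their summed FPKM, with 1 bar per library. Myf5 reaches 23.03% to 34.3% of Myod1 in the 4 knock-down libraries, against 7.61% and 11.6% in GAP-scr, and the Mef2d share is 19.2% to 25.5%, against 27.1% and 33.4%.

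Six4 (chromosome 12, 73099609 to 73114031), which takes part in activating Myog and Myf5 in the mouse embryo, was at 12.0 and 10.8 FPKM in GAP-2, at 13.0 and 12.6 FPKM in GAP-2/3 and at 14.99 and 9.31 FPKM in GAP-scr. The 2 control libraries enclosed all 4 knock-down libraries. The difference in both arms was 0.03 ± 0.15, with a 95% interval of -0.30 to 0.35 (limma adjusted p = 0.909). It turned on 1 library: without GAP-scr A it was 0.34 (limma adjusted p = 0.0392), and without GAP-scr B it was -0.29. Of 16 listed genes that work with or beside Six4 (homeobox, Eya, Dach and Pax genes), 5 were tested. Of these, 2 rose in the mean of both arms, 1 in GAP-2 and 2 in GAP-2/3, beside 24.5%, 10.4% and 28% of all genes called higher. Under quantile normalization 1 passed in that mean, 0 in GAP-2 and 0 in GAP-2/3. Eya1, a phosphatase and cofactor of Six4, rose by 0.50 ± 0.10 (limma adjusted p = 0.00493), and Six5 rose by 0.34 ± 0.11 (limma adjusted p = 0.0373), a call that was lost under scaling to one median. The calls of Eya1 in each single arm were lost under quantile normalization. Eya3 differed by 0.06 ± 0.10 (limma adjusted p = 0.635). Myf6, Mef2b, Six2, Pax3 and Pax7 are not analysed here.

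The basic helix-loop-helix partners and inhibitors of the myogenic factors moved in both directions. Of 18 tested, 8 rose and 3 fell in both arms (median 0.20), 4 rose and 2 fell in GAP-2, and 8 rose and 4 fell in GAP-2/3. Over all genes 24.5% rose and 9.57% fell in both arms, 10.4% and 4.18% in GAP-2, and 28% and 11.3% in GAP-2/3. With the libraries scaled to one median, 4 rose and 4 fell in both arms, 2 and 2 in GAP-2, and 5 and 4 in GAP-2/3. Without the 2 libraries high in Rn45s, 3 rose and 3 fell in both arms. The 3 E proteins, which were named as a class after their values were seen, differed among themselves: Tcf12 rose by 0.43 ± 0.09 (limma adjusted p = 0.00470), Tcf4 rose by 0.30 ± 0.09 (limma adjusted p = 0.0252) and Tcf3 fell by 0.36 ± 0.10 on the log2 scale (limma adjusted p = 0.0147). Under that scaling Tcf4 no longer passed. The Id genes, named likewise, passed in the mean of both arms. In GAP-2 the call held for Id1 alone (0.45 ± 0.11, limma adjusted p = 0.0230), and it was lost with the libraries scaled to one median. In GAP-2, Id2 differed by 0.16 ± 0.14 (limma adjusted p = 0.452) and Id3 by 0.24 ± 0.14 (limma adjusted p = 0.260). Id1 was at 46.8 to 51.6 FPKM in the knock-down libraries, against 31.7 and 37.4 FPKM in GAP-scr (0.49 ± 0.10, limma adjusted p = 0.00394). Id3 was at 37.9 and 28.2 FPKM in GAP-2, at 54.1 and 62.1 FPKM in GAP-2/3 and at 27.4 and 27.8 FPKM in GAP-scr, and GAP-2/3 exceeded GAP-2 by 0.81 ± 0.14 (limma adjusted p = 0.00430). Id2 rose by 0.33 ± 0.12 (limma adjusted p = 0.0474), a call lost under the same scaling. Without the 2 libraries high in Rn45s, neither Id1, Id2 nor Tcf4 passed. Twist1, which inhibits MyoD, was at 3.50 to 4.21 FPKM in the knock-down libraries, against 1.68 and 2.45 FPKM in GAP-scr (0.69 ± 0.12, limma adjusted p = 0.00209). Of the genes that fell, Heyl, a Notch target, changed by -0.93 ± 0.14 (limma adjusted p = 0.000906), and Snai1, a zinc-finger repressor listed here because it binds E-boxes, changed by -0.56 ± 0.11 (limma adjusted p = 0.00281).

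Of 25 cofactors of Mef2 and MyoD, 2 rose and 7 fell in both arms (median -0.23), 0 rose and 3 fell in GAP-2, and 2 rose and 8 fell in GAP-2/3. The lower genes were 28% of the list in both arms, 12% in GAP-2 and 32% in GAP-2/3, beside 9.57%, 4.18% and 11.3% of all genes. Without the 2 libraries high in Rn45s the counts in both arms were 2 and 5, and 3 of the 9 called cofactors still passed. Tead4, a TEA-domain factor of muscle genes, was at 17.9 to 21.4 FPKM in the knock-down libraries, against 30.4 and 31.2 FPKM in GAP-scr (-0.65 ± 0.09, limma adjusted p = 0.000678). Smarcd3, the chromatin remodelling subunit that accompanies MyoD, changed by -0.40 ± 0.09 (limma adjusted p = 0.00787), and Ncoa2, a coactivator of Mef2 proteins, by -0.44 ± 0.11 (limma adjusted p = 0.00980). Neither passed without the 2 libraries high in Rn45s. Kat2b, an acetyltransferase of MyoD, moved the other way, at 9.22 to 13.7 FPKM in the knock-down libraries and 7.90 and 6.55 FPKM in GAP-scr (0.61 ± 0.11, limma adjusted p = 0.00228).

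Most of the listed genes known as targets of these factors were lower. Like the other lists, this one was drawn up with earlier results of these data known, so its shares are a description and no independent test. Of 50 tested, 0 rose and 33 fell in both arms (median -0.43), 0 rose and 31 fell in GAP-2 (median -0.51), and 1 rose and 28 fell in GAP-2/3 (median -0.36). The lower genes were 66% of the list in both arms, 62% in GAP-2 and 56% in GAP-2/3, beside 9.57%, 4.18% and 11.3% of all genes. The member that rose in GAP-2/3 was Eno3, the muscle enolase, which did not pass with the libraries scaled to one median or without the 2 libraries high in Rn45s. Acta1, the skeletal muscle actin, was at 2974 and 2834 FPKM in GAP-2, at 2928 and 3215 FPKM in GAP-2/3 and at 5636 and 6323 FPKM in GAP-scr (-0.9999 ± 0.10, limma adjusted p = 6.53e-05). Chrng, the subunit that marks fetal acetylcholine receptors, was at 214 to 219 FPKM in the knock-down libraries, against 393 and 401 FPKM in GAP-scr (-0.88 ± 0.09, limma adjusted p = 4.25e-05). Ryr1, the calcium release channel, changed by -1.03 ± 0.11 (limma adjusted p = 8.06e-05), and Cdkn1c, a cell cycle inhibitor of differentiating myoblasts, by -1.22 ± 0.11 (limma adjusted p = 2.78e-05). In GAP-2/3, where the Myog libraries overlapped the controls, Acta1 changed by -0.96 ± 0.12 (limma adjusted p = 0.000199) and Chrng by -0.87 ± 0.10 (limma adjusted p = 0.000112). Of the 10 myotube markers, 9 fell in both arms (median -0.65), but 7 of the 10 are also on the list of targets and are no separate evidence. Without the 2 libraries high in Rn45s, 32 targets fell in both arms, 27 of them among the 33.

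Of 24 genes of undifferentiated myoblasts other than Myf5, 9 rose and 3 fell in both arms. These were 37.5% and 12.5% of the list, beside 24.5% and 9.57% of all genes. The median change of the list was 0.09, beside 0.10 over all genes. Of these 24, 5 are also among the partners and inhibitors above, 4 of them among the 9 that rose and 1 among those that fell, and Cdh15, which fell, is also on the list of targets. In GAP-2, 5 rose and 2 fell, beside 10.4% and 4.18% of all genes. In GAP-2/3, 12 rose and 6 fell, beside 28% and 11.3% of all genes. With the libraries scaled to one median, 7 rose and 6 fell in both arms, 3 and 3 in GAP-2, and 7 and 7 in GAP-2/3. Ccnd1, a cyclin of dividing myoblasts, was at 38.1 and 39.7 FPKM in GAP-2, at 43.1 and 47.7 FPKM in GAP-2/3 and at 14.8 and 17.9 FPKM in GAP-scr (1.32 ± 0.10, limma adjusted p = 8.12e-06). Dek, a chromatin protein of dividing cells, rose by 0.68 ± 0.11 (limma adjusted p = 0.00106), and Fgfr4, a growth factor receptor of myoblasts, changed by -0.72 ± 0.12 (limma adjusted p = 0.00188). Of 18 cell cycle genes, 3 (16.7%) rose in both arms, beside 24.5% of all genes, and 6 (33.3%) rose in GAP-2/3, beside 28%. With the libraries scaled to one median, 3 rose and 1 fell in GAP-2/3, and under quantile normalization 2 rose and 2 fell. In the fits as reported, with all 6 libraries and no rescaling, 0 passed in GAP-2 and 0 fell in any of these comparisons. The 3 that rose in both arms were Cdk1 (0.49 ± 0.11, limma adjusted p = 0.00742), Mcm6 (0.54 ± 0.13, limma adjusted p = 0.00833) and Ccne1 (0.43 ± 0.11, limma adjusted p = 0.0139). Without the 2 libraries high in Rn45s, 0 of the 18 rose and 1 fell in both arms.

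**Figure D4:**
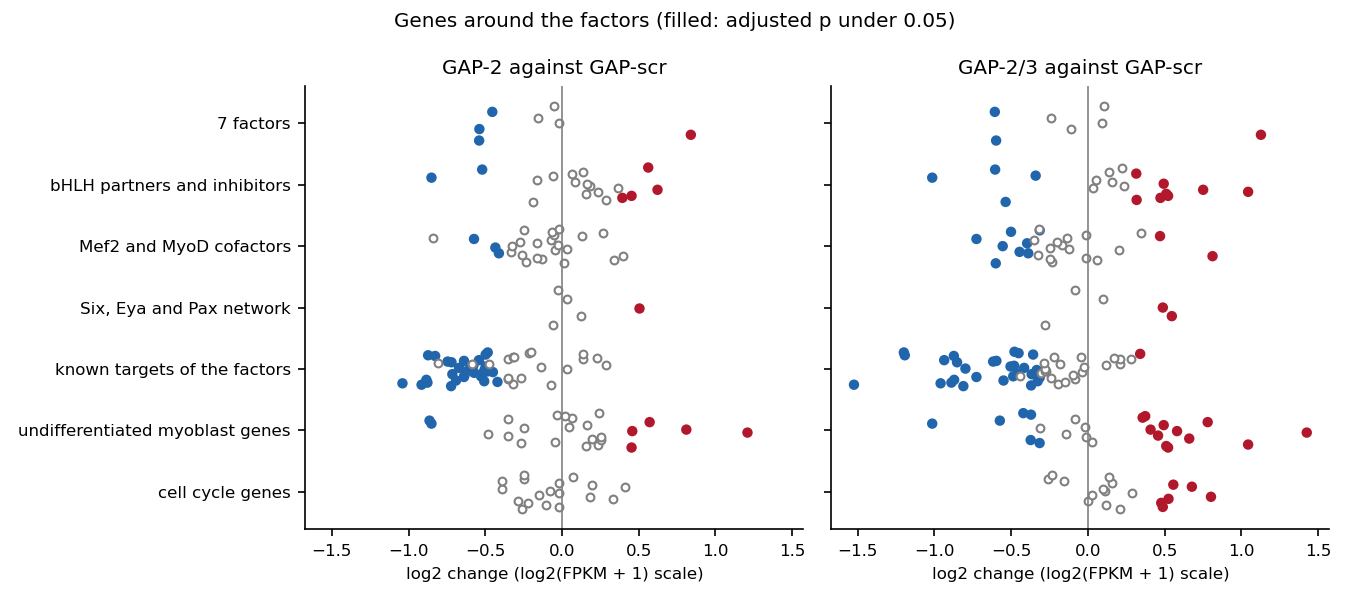
Log2 change on the log2(FPKM + 1) scale (horizontal axes) in GAP-2 (left) and GAP-2/3 (right) against GAP-scr for the 7 factors and 6 lists of related genes, 1 point per gene, spread vertically within a list for clarity. Filled points passed an adjusted p of 0.05 in limma (red higher, blue lower), and 31 and 28 of 50 known targets are blue.

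The genes whose levels over the 6 libraries were most like those of the 3 myogenic regulatory factors were sought among the 8507 genes averaging 5 FPKM or more. Pearson correlations of log2(FPKM + 1) describe only these libraries, which fall into 3 groups. For Myod1 they were Dnajb12 (r = 0.989), Cnksr3 (r = 0.986) and Wnt9a (r = 0.985), and 224 genes reached 0.9. For Myf5 they were Prpf4b (r = 0.9996), Dek (r = 0.999) and Katnbl1 (r = 0.998), and 1412 genes reached 0.9. For Myog they were Stard13 (r = 0.996), Aamdc (r = 0.991) and Gbas (r = 0.984), and 58 genes reached 0.9. Prpf4b was at 23.5 and 24.4 FPKM in GAP-2, at 27.2 and 25.7 FPKM in GAP-2/3 and at 18.8 and 16.4 FPKM in GAP-scr, a narrower range than that of Myf5.

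None of the 7 genes was overlapped by any of the 798 merged Charme ChIRP peaks when peak positions were read as GRCm38. On that reading the nearest peak lay 267 kb from Six4, 327 kb from Mef2c, 753 kb from Myod1 and 945 kb from Myog. It lay 1436 kb from Mef2a, 1956 kb from Mef2d and 3211 kb from Myf5. The share of all genes overlapped by a peak and their usual distances are not given here. The absence of overlap is therefore no trait of these 7 genes. The peak file has no header and the submitters' processing notes name mm9, so the build is an inference and these distances are wrong if the peaks are in mm9. The peaks are 1 merged list for the series and hold no comparison between the gapmer groups.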

How the data were processed

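RNA from 6 libraries, 2 per group, was deposited by the authors as FPKM per gene and library, with 1 gene per row. Library preparation was stranded and polyadenylated RNA was selected, per the labels' protocols. The submitters' processing notes name the build mm9, TopHat2 and Bowtie2, Cuffdiff and Cufflinks, cutadapt and Trimmomatic, MACS, bedtools, CASAVA and FastQC; roles and versions are not given in the sources used here. The authors deposited the ChIRP peaks as 1 merged list with a score per peak, and the score was not used here beyond ranking. Depth is unknown, so no count model and no counting error was given. Precision rests on 2 libraries per group and, in limma, on a spread shared across genes. The p-values speak only of these libraries, and those of limma do not measure each gene's own spread alone.

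The 10993 genes averaging 1 FPKM or more (235 did not) were tested on the log2(FPKM + 1) scale without rescaling. One limma 3.58.1 model (R 4.3.3, eBayes with trend) held all 3 groups (3 residual degrees of freedom before the spread was shared across genes). The step was tested on simulated data. Ratios and shares within a library were compared by exact permutation in Python 3.11.15 with scipy 1.17.1. The members, the 14 other gene lists and the tests were chosen with earlier results of these data known. Named genes were the 7 members, up to 4 per list with the smallest p in both arms, the 3 genes most like each of Myod1, Myf5 and Myog, and the nearest peaks; the E proteins, the Id genes and Eno3 were added after their values were seen. One gene that this rule names is not reported here. Gene positions and promoters came from RefSeq GRCm38.p6. Alternatives were another pseudocount, other filters, scaling to one median, quantile normalization, no trend, a threshold of 0.1, the replicate letter as a block, only the groups compared, and each library or both libraries high in Rn45s left out. The threshold of 0.1 used the same fit, so it could add a call but not lose one. Counts for the lists under other scalings were added after the data were seen.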

Additional observations from a re-analysis of the deposited data

Results flagged for a closer look

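Myog differed between the knock-down arms, by a test of the difference itself: GAP-2/3 was higher than GAP-2 by 0.43 ± 0.12 on the log2(FPKM + 1) scale (limma adjusted p = 0.0442), with 811 and 882 FPKM in GAP-2/3 and 588 and 669 FPKM in GAP-2. Over its 16 alternatives the difference lay between 0.34 and 0.52 and the limma adjusted p between 0.00776 and 0.463. Rn45s was at 4090 FPKM in GAP-2 A and at 174 FPKM in GAP-2 B, against 120 and 93.2 FPKM in GAP-2/3. Without both libraries high in Rn45s the difference was 0.34 (limma adjusted p = 0.133). What sets the arms apart was not tested.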

How the results depend on the processing

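Of the single-gene results under the alternatives, 0 reversed among those called, 25 lost the threshold and 5 came to pass it. Of the 3 genes called lower in both arms, Myod1 and Mef2d kept the call in all 15 alternatives and Myog lost it in 7. With 1 library left out at a time, the number of the 7 genes called higher in both arms was 1 to 2, lower in GAP-2 1 to 3, higher in GAP-2/3 1 to 2, lower in GAP-2/3 1 to 2 and higher in GAP-2/3 against GAP-2 0 to 1. Without both libraries high in Rn45s, 2 were called higher in GAP-2/3 (Myf5 and Six4). In GAP-2/3 against GAP-2, 0 were called higher with one median, quantile normalization, no trend or without both libraries high in Rn45s. The cause was not tested. Over the alternatives the share of all tested genes called was 18.9% to 44.0% in both arms (34.1% as reported), 4.58% to 23.9% in GAP-2 (14.6%), 13.99% to 48.6% in GAP-2/3 (39.3%) and 1.77% to 18.7% between the arms (10.1%). Library letters did not pair the samples across all 3 groups. Over 10993 genes the A minus B differences correlated at 0.36 between GAP-2 and GAP-scr, the groups whose A libraries were high in Rn45s. They correlated at -0.13 between GAP-2/3 and GAP-scr and at -0.18 between GAP-2/3 and GAP-2. What the A libraries of GAP-2 and GAP-scr share was not tested. With the letter as a replicate block, the 7 genes gave the counts reported: 1 higher and 3 lower for both arms, the same for GAP-2, 1 and 2 for GAP-2/3, 1 and 0 between the arms. A fit on only the groups compared gives nothing for both arms, which use every library, and the filter at a mean of 5 FPKM leaves out Mef2c. With a group left at 1 library, that library is assumed to vary like the others. The threshold of 0.1 is counted among the alternatives although no call can be lost under it. Depth is unknown, and 2 libraries per group limit every value.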
